A study of Mus musculus with 3 samples.

Results

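Genes of blood and lymphatic endothelium were examined in cells sorted from the leptomeninges, which are the pia and arachnoid layers around the brain, of vehicle-treated mice. The set was a fixed list of 35 symbols for pan-endothelial, brain barrier, arterial, venous and lymphatic genes. It was drawn up by gene name, with earlier results of these data known. Of these, 34 matched 1 row each among the 46983 gene rows of the count table, and the symbol Robo4x matched none. The 3 libraries all belonged to 1 group, the pia-enriched fraction, so no contrast between conditions was possible, and genes and libraries were compared with each other. The labels stated neither the strain, genotype, sex and age of the mice, nor the agent that the vehicle stood for, the antigens used for sorting, or whether the libraries came from separate animals. Tests between libraries ask whether a gene spreads more between these samples than genes of similar level do. That spread may therefore be technical, and a gene that is not called is not shown to be stable. Libraries 1, 2 and 3 held 21002860, 28704952 and 25338616 gene counts.

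Endothelial cells line blood and lymphatic vessels. Vascular endothelial growth factors act on them through the receptor tyrosine kinases Flt1, Kdr and Flt4, and angiopoietins act through Tek, which pairs with the orphan receptor Tie1. Pial and arachnoid blood vessels belong to the blood-brain barrier, where endothelial cells carry transporters and tight junctions, whereas the dura holds lymphatic vessels. Several genes of the set are not restricted to endothelium: stromal, mural, mesothelial or blood cells also make Icam1, Vcam1, Pdpn, Cd34, Angpt1, Angpt2, Eng and Fli1.

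The sorted cells carried endothelial transcripts mostly at low levels beside a few abundant, less restricted ones. Levels were taken on scaled library sizes, in counts per 1000000 gene counts (CPM). Of the 34 genes, 23 were above 1 CPM in every library, against 27.3% of all gene rows. Those rows include many without reads, as only 25083 of the 46983 had a count in any library. There were 11 genes above 10 CPM and 3 above 100 CPM in every library, the latter being Icam1, Angpt2 and Vcam1. The median log2(CPM + 1) of the 34 genes was 2.99, 2.56 and 3.16 in libraries 1, 2 and 3 (2.90 ± 0.31, SD, n = 3). The 28 genes that passed the filter on low counts had a median of 3.68 ± 0.24, and all 14409 genes that passed it had 4.19 ± 0.12. The 8 less restricted genes took 86.2% of the summed CPM of the set, with sums of 1589, 1097 and 1123 CPM in libraries 1, 2 and 3. The other 26 genes summed to 201, 139 and 272 CPM. That split into 8 and 26 genes was made after the values had been seen. In bulk RNA, fewer cells of a type and less RNA per cell cannot be told apart.

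Levels of different genes were compared per length, as CPM per kilobase of exon. Pecam1, the platelet and endothelial adhesion molecule used to define endothelium (chromosome 11, 106654217 to 106750628), was at 2.32 ± 0.59 CPM per kilobase (SD, n = 3), at percentile 38.8 of the tested genes. The fibroblast collagen Col1a2 exceeded it 360-fold, 607-fold and 311-fold per kilobase in libraries 1, 2 and 3, and the mural cell receptor Pdgfrb exceeded it 52.6-fold, 59.4-fold and 34.8-fold. Icam1 stood highest in the set at 137 ± 76 CPM per kilobase (percentile 97.5), followed by Angpt2 at 75.1 ± 8.6 and Pdpn at 34.8 ± 2.4. The ranges over libraries of these 3 genes did not overlap that of the next gene in the order. From Esam downward each neighbouring pair overlapped, 30 of 33 pairs in all, so the order of the other 31 genes was resolved only between distant ranks. With the longest transcript in place of all exons, Icam1 was at 236 CPM per kilobase, Pecam1 at 4.19, and Cd34 (30.8), Vcam1 (30.7) and Esam (30.5) came close to Pdpn.

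**Figure D1:**
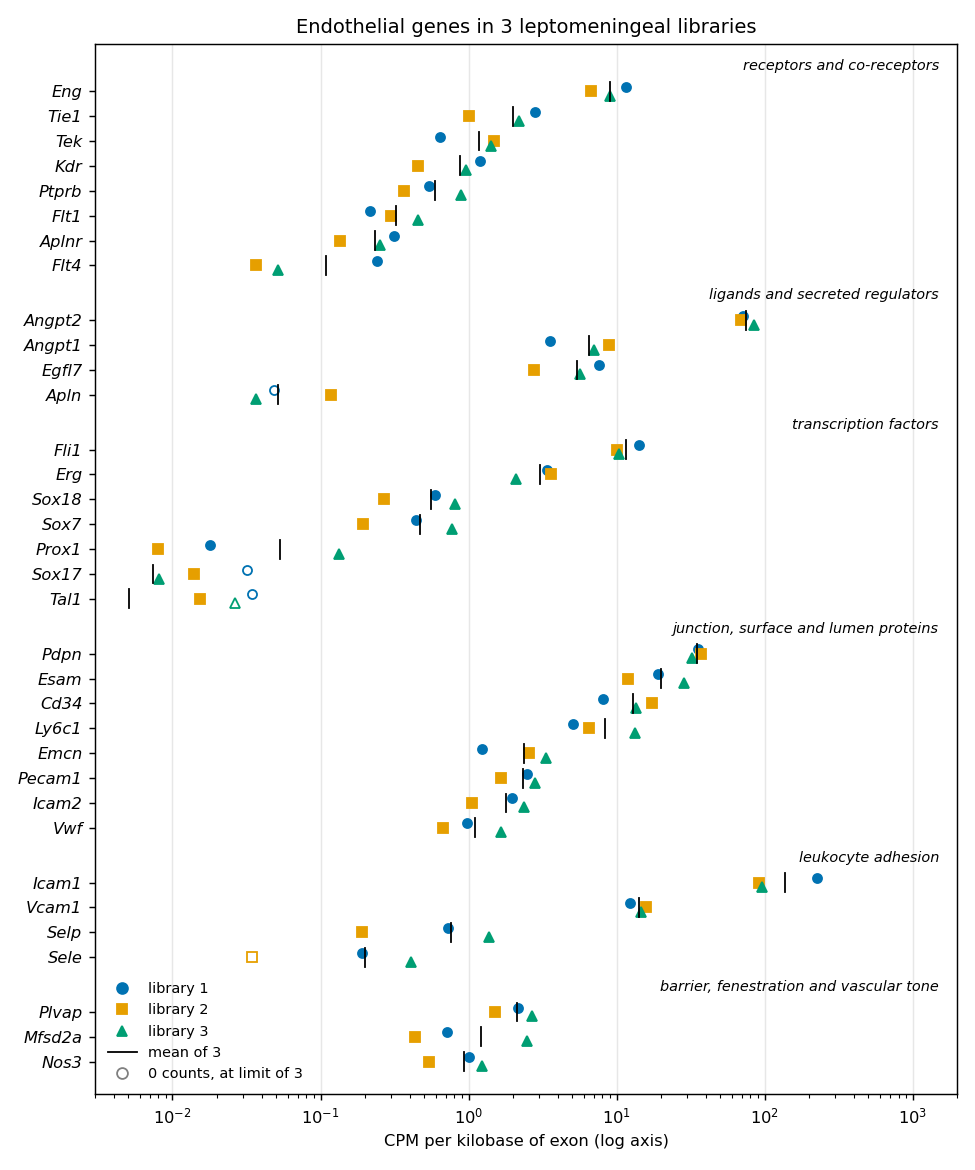
Level of each of the 34 endothelial genes in each library, as CPM per kilobase of exon on a log axis, grouped by role. Points are libraries, vertical bars are means of 3 libraries, and open points mark 0 counts drawn at the limit of 3 counts; Icam1, Angpt2 and Pdpn lie to the right, and Sox17 and Tal1 at the left edge.

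Vascular growth factor ligands lay above their receptors. Kdr, the main signalling receptor for Vegfa (chromosome 5, 75932827 to 75978458), had levels of 10.8, 4.13 and 8.68 CPM in libraries 1, 2 and 3. Flt1, which binds Vegfa and Pgf and also has a soluble form that gene counts do not separate, was at 2.93, 4.03 and 6.13 CPM. Flt4, the receptor for Vegfc on lymphatic endothelium, was at 1.97, 0.302 and 0.424 CPM. Kdr exceeded Flt1 in each library, whereas the level of Flt4 rested on library 1: its mean of 0.109 CPM per kilobase was 0.0455 without that library. Among the ligands, Pgf, the placental growth factor, was at 90.9 ± 29 CPM per kilobase, Vegfa at 7.66 ± 3.3, Vegfc at 3.47 ± 1.5 and Vegfb at 2.65 ± 1.6. Per kilobase, Vegfa was 8.87-fold, 18.0-fold and 4.30-fold above Kdr in libraries 1, 2 and 3.

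The angiopoietin pathway had the same arrangement. Angpt2, the context-dependent antagonist or agonist of Tek (chromosome 8, 18690263 to 18741562), had 262, 255 and 313 CPM. Angpt1, the Tek agonist that perivascular and stromal cells make (chromosome 15, 42424723 to 42676977), was at 18.4, 46.3 and 36.3 CPM. The libraries thus lay close together for Angpt2, and library 1 was low for Angpt1. Angpt2 exceeded Angpt1 per kilobase 20.1-fold, 7.77-fold and 12.2-fold. Tek itself (chromosome 4, 94739289 to 94874976) was at 3.03, 6.96 and 6.67 CPM, and Tie1 (chromosome 4, 118471191 to 118490061) at 13.8, 4.94 and 10.7 CPM. The pair did not keep its order: Tie1 was 4.36-fold and 1.53-fold above Tek per kilobase in libraries 1 and 3, and 0.681 of it in library 2. Ptprb, the phosphatase that restrains Tek signalling, was at 7.17, 4.87 and 11.8 CPM.

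Promoters of a VEGF receptor and of the angiopoietin receptor are shown because libraries 1 and 2 ordered these genes oppositely, Kdr being lowest in library 2 and Tek in library 1. Each run is the 250 bases upstream of the RefSeq start on GRCm38.p6, in the direction of transcription. Capitals mark GGAA or its reverse complement TTCC, the core bound by ETS factors such as Erg and Fli1.
Kdr promoter, chr5:75978456-75978705, minus strand: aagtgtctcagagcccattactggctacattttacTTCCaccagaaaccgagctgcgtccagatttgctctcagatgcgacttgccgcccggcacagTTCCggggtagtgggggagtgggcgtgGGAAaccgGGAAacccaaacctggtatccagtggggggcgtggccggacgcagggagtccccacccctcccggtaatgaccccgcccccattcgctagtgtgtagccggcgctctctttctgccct
Tek promoter, chr4:94739039-94739288, plus strand: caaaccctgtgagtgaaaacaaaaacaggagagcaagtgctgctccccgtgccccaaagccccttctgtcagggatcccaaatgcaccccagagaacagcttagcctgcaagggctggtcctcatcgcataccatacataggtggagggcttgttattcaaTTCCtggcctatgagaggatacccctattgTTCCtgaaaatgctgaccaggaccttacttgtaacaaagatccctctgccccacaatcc
The core occurred 4 times upstream of Kdr and 2 times upstream of Tek. So short a motif was present on either strand in 93.4% of 32851 promoter windows of this length, and in 25 of the 26 windows of the 19 members found in the RefSeq table.

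**Figure D2:**
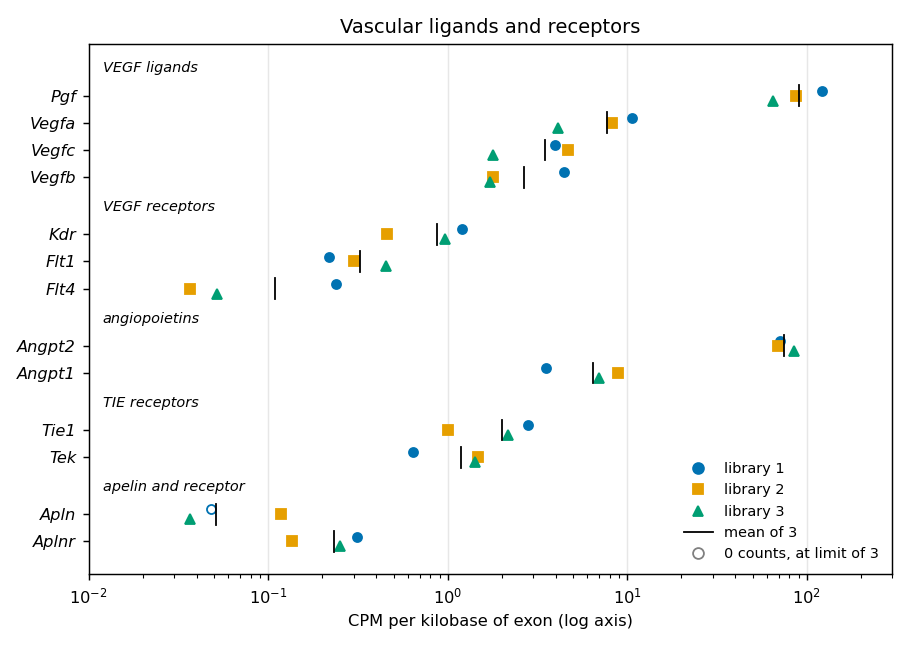
Levels of ligands and receptors of the VEGF, angiopoietin and apelin pathways, as CPM per kilobase of exon on a log axis; points are libraries, vertical bars are means of 3, and the open point marks 0 counts drawn at the limit of 3 counts. Pgf, Vegfa and both angiopoietins lie to the right of their receptors in every library.

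Other signalling genes were split between low receptors and a high co-receptor. Eng, the TGF-beta co-receptor endoglin of endothelial and stromal cells, was at 46.5, 27.4 and 36.2 CPM, 4.64-fold, 4.05-fold and 3.19-fold above Pecam1 per kilobase. Aplnr, the apelin receptor, was at 1.16, 0.504 and 0.925 CPM. Its ligand Apln, a product of tip cells, had 0, 11 and 3 counts, where a count of 0 in library 1 allows up to 0.152 CPM. The other apelin receptor ligand, Apela, had 0 counts in every library. Egfl7, a secreted endothelial protein whose gene hosts the microRNA miR-126, was at 27.3, 9.88 and 20.4 CPM and lowest in library 2.

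Endothelial transcription factors were uneven. Fli1, an ETS factor of endothelial and blood cells, was at 49.4, 35.0 and 36.0 CPM, and its relative Erg, which maintains endothelial identity, at 11.7, 12.5 and 7.29 CPM. Per kilobase Fli1 exceeded Erg 4.19-fold, 2.79-fold and 4.91-fold. The SOXF factors, which direct arterial and lymphatic fate, were scarce. Sox7 was at 1.47, 0.638 and 2.54 CPM and Sox18 at 0.960, 0.437 and 1.31 CPM, both lowest in library 2 and highest in library 3. Sox17, the arterial member of that family, had 0, 2 and 1 counts, all under the limit of 3 counts. Tal1, a blood and early vascular factor, had 0, 2 and 0 counts.

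All 8 junction, surface and lumen genes that were found lay above 1 CPM in every library. Pecam1 was at 15.4, 10.4 and 17.5 CPM. Esam, an adhesion molecule of endothelial tight junctions and platelets (chromosome 9, 37528078 to 37538319), was at 54.9, 33.9 and 81.7 CPM, 7.73-fold, 7.10-fold and 10.1-fold above Pecam1 per kilobase. Emcn, the sialomucin endomucin of capillaries and veins, was at 6.67, 13.8 and 17.9 CPM. These 3 genes were highest in library 3. Cd34, a sialomucin of endothelial and fibroblastic cells (chromosome 1, 194938819 to 194961279), was at 59.3, 126 and 98.1 CPM and lowest in library 1. Vwf, the clotting glycoprotein stored by endothelium and platelets, was at 15.6, 10.8 and 26.8 CPM, and Icam2, a constitutive endothelial adhesion molecule, at 3.74, 2.02 and 4.51 CPM. Both were lowest in library 2 and highest in library 3. Ly6c1, a surface protein of brain endothelium, was at 8.44, 10.9 and 22.4 CPM; its counts are uncertain because near-identical Ly6 genes can share reads.

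Of the 4 leukocyte adhesion molecules, the immunoglobulin-type pair was abundant and the selectins were lower, Sele falling to 0 counts in library 2. Icam1, a ligand of leukocyte integrins (chromosome 9, 21015985 to 21028817), was at 981, 401 and 416 CPM, so library 1 stood 2.45-fold above the lowest. Vcam1, the other integrin ligand (chromosome 3, 116109949 to 116129688), was at 108, 139 and 128 CPM, with the libraries close together. Per kilobase Icam1 exceeded Vcam1 18.4-fold, 5.86-fold and 6.58-fold, and Icam2 115-fold, 86.9-fold and 40.2-fold. Selp, the P-selectin of venules and platelets (chromosome 1, 164115264 to 164150026), was at 3.18, 0.840 and 6.09 CPM. Sele, the cytokine-induced E-selectin restricted to endothelium (chromosome 1, 164048234 to 164057677), had 11, 0 and 31 counts, that is 0.556 and 1.20 CPM in libraries 1 and 3 with a limit of 0.101 CPM in library 2. Both selectins were lowest in library 2 and highest in library 3; without library 3 the mean of Selp was 0.450 in place of 0.764 CPM per kilobase, and that of Sele 0.0941 in place of 0.200.

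The promoters of Icam1, Sele and Selp are shown because these genes of 1 function stood far apart in level, at ranks 1, 29 and 23 of the 34 genes per kilobase. Windows and build are as above, and capitals mark GGNNNTTCC or its reverse complement, a loose form of the site bound by NF-kB dimers.
Icam1 promoter, chr9:21015690-21015939, plus strand: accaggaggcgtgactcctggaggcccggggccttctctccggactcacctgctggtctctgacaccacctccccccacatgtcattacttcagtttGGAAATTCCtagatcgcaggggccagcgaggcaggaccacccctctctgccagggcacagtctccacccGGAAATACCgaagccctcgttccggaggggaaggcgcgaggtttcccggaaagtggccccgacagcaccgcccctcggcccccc
Sele promoter, chr1:164047984-164048233, plus strand: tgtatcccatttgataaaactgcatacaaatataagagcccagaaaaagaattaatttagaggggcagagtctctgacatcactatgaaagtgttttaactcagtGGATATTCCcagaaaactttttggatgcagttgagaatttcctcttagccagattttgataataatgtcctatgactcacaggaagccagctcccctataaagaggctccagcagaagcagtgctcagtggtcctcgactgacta
Selp promoter, chr1:164115014-164115263, plus strand: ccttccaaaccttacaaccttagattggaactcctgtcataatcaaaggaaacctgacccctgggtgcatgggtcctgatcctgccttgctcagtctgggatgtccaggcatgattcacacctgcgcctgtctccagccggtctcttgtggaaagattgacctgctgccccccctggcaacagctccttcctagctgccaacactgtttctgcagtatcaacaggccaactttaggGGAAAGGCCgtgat
Matches began 153 and 84 bases upstream of the start of Icam1, 145 bases upstream of Sele and 14 bases upstream of Selp. The motif was present in 15.7% of all windows and in 7 of the 26 member windows, belonging to 6 of 19 members. Each match also holds GGAA on at least 1 strand and so counts among the ETS cores; a match is a string of letters and not a measured site.

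The barrier, fenestration and tone genes were all below 10 CPM in every library. Mfsd2a, the lipid transporter that limits transcytosis in brain endothelium (chromosome 4, 122946850 to 122961188), was at 1.62, 0.974 and 5.55 CPM. Without library 3 its mean of 1.21 CPM per kilobase was 0.569. Plvap, the diaphragm protein of fenestrated vessels such as those of choroid plexus, was at 4.29, 2.99 and 5.36 CPM. Per kilobase Plvap exceeded Mfsd2a 3.01-fold, 3.48-fold and 1.09-fold. Markers of choroid plexus epithelium summed to 62.8, 1634 and 2391 CPM in libraries 1, 2 and 3; their part in the level of Plvap was not tested. Nos3, the endothelial nitric oxide synthase, was at 4.14, 2.22 and 5.09 CPM, with 25.2% of its exon length overlapped by an antisense gene.

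Among the lymphatic members, Prox1 and Flt4 were low and Pdpn was high. Prox1, the factor that specifies lymphatic endothelium, had 3, 2 and 29 counts, and its mean of 0.0531 CPM per kilobase was 0.0129 without library 3. Flt4 was highest in library 1 and Prox1 in library 3. Pdpn, which lymphatic endothelium shares with arachnoid and fibroblastic cells (chromosome 4, 143267431 to 143299564), was at 63.9, 67.1 and 58.5 CPM, 7.47-fold, 12.8-fold and 6.07-fold above the lymphatic hyaluronan receptor Lyve1 per kilobase. Of 7 further lymphatic genes, 5 passed the filter. Of these, edgeR's goodness-of-fit test called 0 variable between libraries, against 0.437% of all genes tested. At an unadjusted p under 0.05 in that test there were 0, against 7.04% of all genes tested. At these shares, 0 among so few genes is not a result about the list. Foxc2, a valve and mesenchymal factor, was at 7.08 ± 1.1 CPM per kilobase (percentile 65.1 of the tested genes) and Lyve1 at 4.30 ± 1.3 (percentile 53.6), both above Pecam1. Nrp2 was at 1.44 ± 0.47 and Reln at 1.14 ± 0.44, whereas Itga9 was at 0.788 ± 0.28 and Mmrn1 at 0.171 ± 0.17. The lymphatic chemokine Ccl21a, named here after its values were seen, had 45, 1 and 7 counts.

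Further endothelial lists put these values in context. Whether endothelial or other cells carried the transcripts of these lists was not tested. All 16 other pan-endothelial genes were above 1 CPM in every library, against 27.3% of all gene rows. Of these, edgeR called 0 variable, which at 0.437% of all genes tested is not a result about the list. At an unadjusted edgeR p under 0.05 there were 2 of the 16, against 7.04% of all genes tested. Their highest levels per kilobase were those of Thbd, the thrombin receptor thrombomodulin, at 201 ± 25, Ramp2 at 38.1 ± 3.9, S1pr1 at 13.8 ± 3.9 and Calcrl at 10.8 ± 5.2, and their lowest those of Lmo2 at 0.589 ± 0.094 and Shank3 at 0.266 ± 0.13. The junctional genes Cdh5 and Cldn5, named after their values were seen, were at 6.88 ± 1.8 and 1.55 ± 0.72. Of 13 further brain barrier genes, 8 were above 1 CPM in every library (27.3% of all gene rows) and 1 of the 11 tested was called variable (0.437% of all genes tested). Itm2a led at 1043 ± 365 CPM per kilobase, where the fibroblast collagen Col1a2 was at 925 ± 75 and Pecam1 at 2.32 ± 0.59. Next came the efflux pump Abcg2 at 32.5 ± 10, the glucose transporter Slc2a1 at 17.2 ± 2.8 and the efflux pump Abcb1a at 15.9 ± 2.6. The barrier transcription factors Lef1 and Foxq1 were at 0.103 ± 0.038 and 0.0165 ± 0.022. The called gene was the thyroid hormone transporter Slco1c1, at 2.12, 24.1 and 38.3 CPM (edgeR goodness of fit, adjusted p = 0.00297), lowest in library 1 as were the choroid plexus markers, whose part in this was not tested. In edgeR its adjusted p was 0.9996 without library 1, 0.00874 without library 2 and 0.227 without library 3.

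Arterial and venous genes were both detected. Above 1 CPM in every library were 8 of 12 arterial and 4 of 5 venous genes, against 27.3% of all gene rows. Whether endothelial or other cells carried these transcripts was not tested. Among 12 arterial genes, 0 of 10 tested were called by edgeR, which at 0.437% of all genes tested is not a result about the list. At an unadjusted edgeR p under 0.05 there was 1 of the 10, against 7.04% of all genes tested. The connexin Gja4 was at 37.1 ± 12 CPM per kilobase, the Notch target Hey1 at 16.2 ± 1.1, Hey2 at 1.92 ± 1.2 and Notch1 at 1.85 ± 0.71, down to Gja5 at 0.174 ± 0.13 and Notch4 at 0.129 ± 0.056. Of 5 venous genes, Ephb4 was at 10.3 ± 3.5, Nr2f2 at 6.29 ± 0.83, Lrg1 at 1.88 ± 1.2 and Slc38a5 at 1.74 ± 1.5 CPM per kilobase. The fifth, the venular chemokine receptor Ackr1, was the 1 venous gene called, at 1.62, 2.32 and 19.7 CPM (edgeR goodness of fit, adjusted p = 0.0129). In edgeR its adjusted p was 0.00149 without library 1, 0.138 without library 2 and 0.998 without library 3. Library 3, the highest for Ackr1, was also the highest for Selp, Sele and Vwf. Of the other venous genes, Slc38a5 and Lrg1 were highest in library 3, Nr2f2 in library 2 and Ephb4 in library 1. The 5 venous genes summed to 114, 117 and 118 CPM in libraries 1, 2 and 3. In the growth factor list, Angptl4 was at 36.4 ± 3.9 and Pdgfb at 0.868 ± 0.16 CPM per kilobase.

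Variation between libraries was tested next over the whole table. edgeR's goodness-of-fit test with Benjamini-Hochberg adjustment called 0 of the 28 tested members, against 63 of 14409 genes (0.437%), a share at which 0 calls among 28 genes is not a result about the set. At an unadjusted p under 0.05 there were 2 members against 7.04% of all genes. These were Selp (edgeR unadjusted p = 0.0215, adjusted p = 0.499) and Mfsd2a (edgeR unadjusted p = 0.0244, adjusted p = 0.524). This count depended on the libraries and settings: in edgeR it was 7 of 28 without library 1 (867 of 15460 genes), 1 of 30 without library 2 (786 of 14610) and 0 of 28 without library 3 (860 of 14702). Without library 1 the genes were Selp, Mfsd2a, Esam, Vwf, Ptprb, Sox7 and Ly6c1, and without library 2 the gene was Flt4. The 6 genes that did not pass the filter, Flt4, Apln, Tal1, Sox17, Prox1 and Sele, were not tested.

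As a description, the members leaned toward library 3 and away from library 2. Of the 28 tested genes, 19 were lowest in library 2, against 32.3% of all genes tested, and 15 were highest in library 3, against 27.6%. There were 12 genes with both features, against 10.5%. Library 1 was highest for 7 of the 28 genes, against 39.6%, and lowest for 7, against 40.4%. Library 2 was highest for 6, against 32.8%, and library 3 lowest for 2, against 27.2%. In a comparison that leaves library 1 aside, 22 of 28 were higher in library 3 than in library 2, against 49.5% of all genes, with a median difference of 0.68 on the log2 scale against -0.0048. The 6 genes that were lower there were Tek, Angpt1, Erg, Cd34, Pdpn and Vcam1. By the split made after the values were seen, 4 of the 8 less restricted genes were higher in library 3 than in library 2. Of the other members, 18 of the 20 tested were. Among the 16 other pan-endothelial genes 13 were higher in library 3, but Cdh5 went the other way, at 32.6, 33.8 and 20.4 CPM in libraries 1, 2 and 3. The 12 genes lowest in library 2 and highest in library 3 were Pecam1, Esam, Icam2, Vwf, Selp, Sox7, Sox18, Ptprb, Angpt2, Mfsd2a, Plvap and Nos3. The spread of the 28 genes had a median range of 1.03 on the log2 scale against 0.67 for all genes tested, from 0.19 for Pdpn and 0.30 for Angpt2 to 1.73 for Mfsd2a and 1.95 for Selp.

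**Figure D3:**
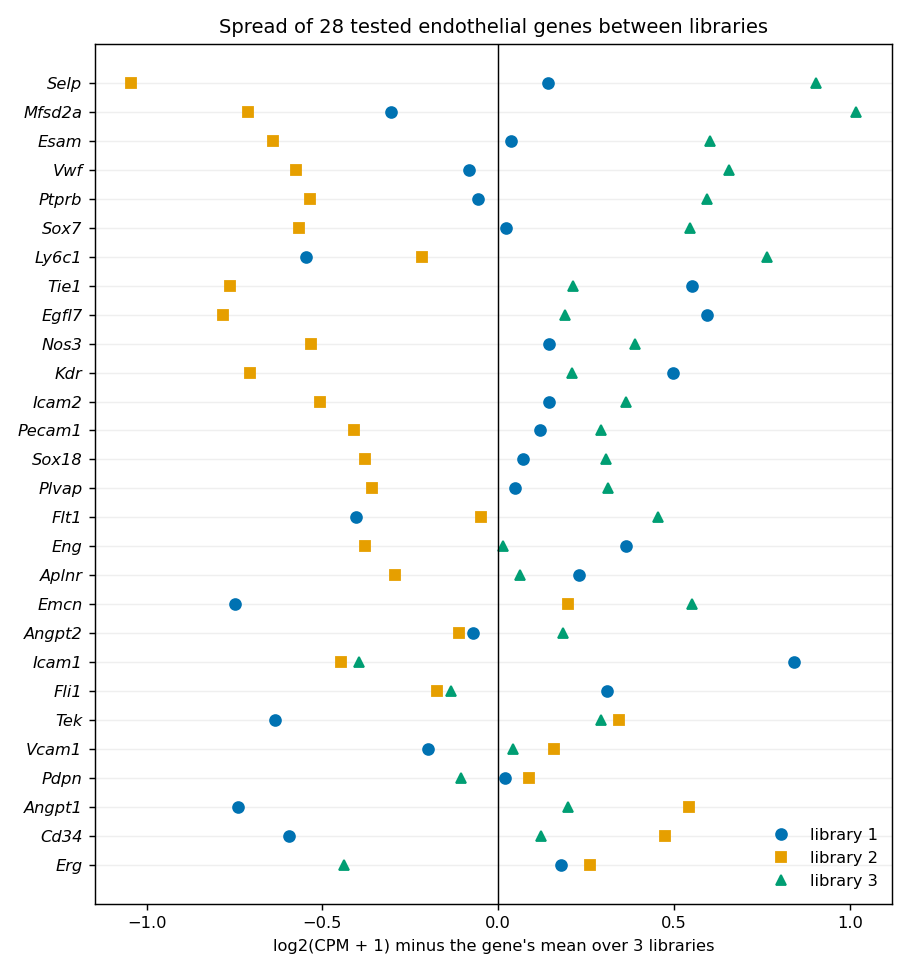
Deviation of each of the 28 tested endothelial genes from its own mean over 3 libraries, on the log2(CPM + 1) scale, ordered by the difference between libraries 3 and 2; points are libraries. Library 2 is lowest for 19 genes and library 3 highest for 15, while Pdpn and Angpt2 show little spread.

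Markers of other cell types also differed between these libraries. Mural cell markers summed to 2815, 2622 and 4368 CPM in libraries 1, 2 and 3. In this list 7 of 8 were higher in library 3 than in library 2, against 49.5% of all genes tested. Platelet and megakaryocyte markers summed to 22.5, 17.1 and 36.8 CPM, and 6 of 6 were higher in library 3 than in library 2. Among them, Treml1 had only 21, 0 and 2 counts and Gp1bb 7, 2 and 5. Itga2b, Gp1bb and Treml1 were highest in library 1. Platelets also carry Pecam1, Esam, Selp and Vwf. Leukocyte markers summed to 9.04, 130 and 285 CPM, with 6 of 6 higher in library 3. Fibroblast markers summed to 23467, 29100 and 25292 CPM, with 0 of 6 higher in library 3 than in library 2. Erythroid markers summed to 16.9 ± 5.6 CPM (SD, n = 3) and arachnoid barrier markers to 95.8, 81.0 and 86.2 CPM. Their part in the levels of the endothelial genes was not tested.

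**Figure D4:**
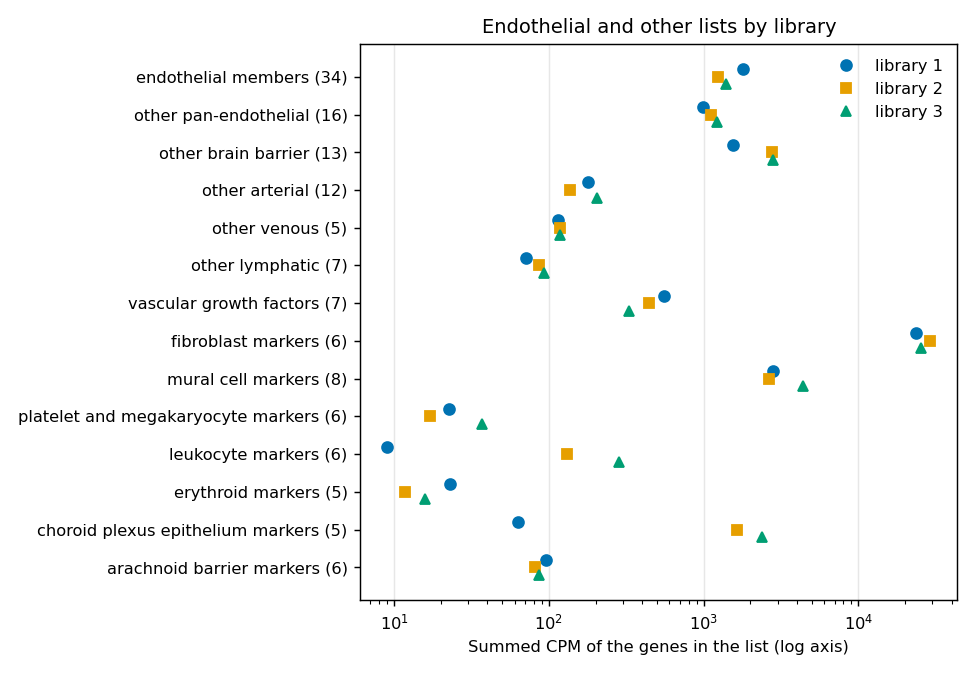
Summed CPM of the endothelial set, of further endothelial lists and of marker lists of other cell types, on a log axis, with the number of genes in parentheses; points are libraries. Mural and platelet markers are highest in library 3, fibroblast markers in library 2, and leukocyte and choroid plexus markers are lowest in library 1.

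The position of library 1 among the members was related to base composition. Across the 28 tested genes, library 1 over the average of the others, as a log2 ratio, had a Pearson correlation of 0.557 and a Spearman correlation of 0.552 with the GC content of the longest transcript. Over 14375 tested genes with a known GC content the values were 0.595 and 0.607. These are correlations across genes that share the same 3 libraries, and are given as a description. Angpt1 (GC 39.3%), Emcn (40.7%) and Cd34 (42.8%) were lowest in library 1, whereas Tie1 (57.6%), Eng (57.4%) and Egfl7 (57.1%) were highest there. Mfsd2a (54.2%) went the other way. With trends of GC content and length removed, 19 of 28 genes were again lowest in library 2 and 15 highest in library 3, against 31.9% and 30.1% of all genes.

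**Figure D5:**
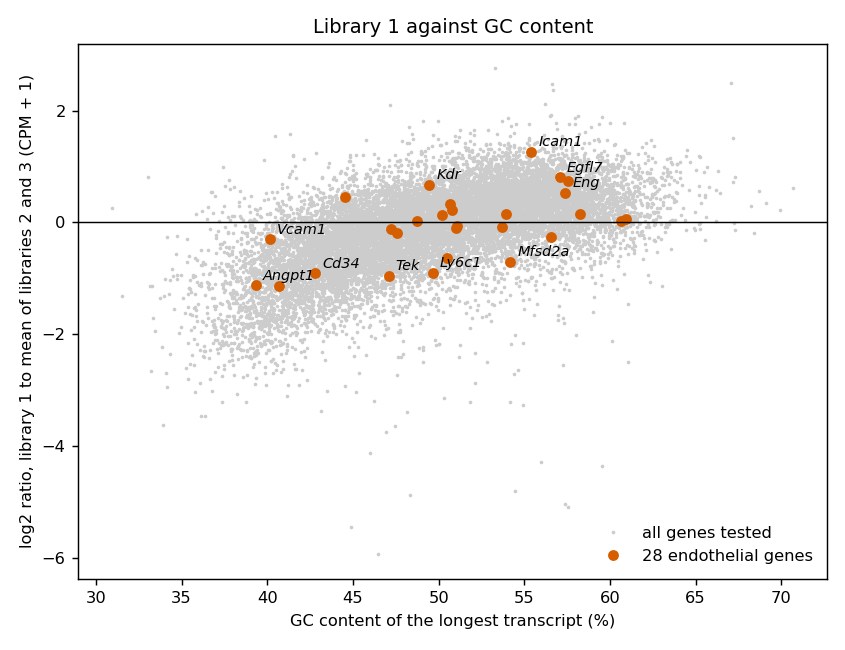
Library 1 over the average of libraries 2 and 3, as a log2 ratio of CPM + 1, against the GC content of the longest transcript, in percent, for all tested genes (grey) and the 28 tested endothelial genes (orange). Angpt1 and Cd34 lie low at the left, and Egfl7, Eng and Icam1 high at the right.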

How the data were processed

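Raw counts per gene of 3 sorted leptomeningeal libraries were used as the authors deposited them. The labels describe a normalized table, whereas the deposited values were whole-number counts with a different total in each library. The submitters' processing notes name HTSeq 0.5.3, DESeq2 1.22.1 and the build mm10, with no role or order; the aligner, the annotation and the strand setting are not given in the sources used here. The table's 5 rows for reads outside genes (45.6%, 39.1% and 39.6% of all reads of libraries 1, 2 and 3) were left out. GENCODE M21 held 98.9% of the table's gene identifiers; this annotation of GRCm38 gave coordinates, the union of exon lengths and the GC content of the longest transcript. No column lacked a sample.

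TMM factors from edgeR 4.0.16 (R 4.3.3) were computed on genes past filterByExpr at a minimum count of 10. With 1 group there is no contrast for the quasi-likelihood test, so variation between libraries was tested with edgeR's goodness of fit. It was run over 14409 genes at the trended dispersion, estimated from the same 3 libraries, with Benjamini-Hochberg adjustment at 0.05. The procedure was also run on simulated data with 200 genes raised 8-fold in 1 library each, at the fitted dispersion and at a lower one. A threshold on recovery was set only for the lower dispersion, so it does not describe power in these libraries. DESeq2 1.42.0 gave alternative size factors. A count of 0 allows up to 3 counts, which is 0.152, 0.101 and 0.116 CPM in libraries 1, 2 and 3. Such limits cover counting error only, because amplified reads without molecular identifiers are not independent molecules. Exons of 10 of the 34 members overlap exons of another gene. The largest overlap with any 1 gene was 25.2% of the member's exon length, in Nos3, which Atg9b also overlaps by 7.12%. Without strand information such reads cannot be assigned.

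Members, lists and tests were chosen with earlier results of these data known. All members are named; of each further endothelial list the 4 highest and 2 lowest genes per length are named, with exceptions stated. The alternatives were other size factors, plain totals, other filters and dispersions, removal of GC content and length trends, another gene length, and leaving out each library.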

Additional observations from a re-analysis of the deposited data

How the results depend on the processing

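The number of members called variable stayed at 0 of 28 to 34 tested in edgeR under each scaling, filter, dispersion and left-out library that was run. The number of all genes called (63) was 134 with no filter on low counts, 181 with a filter on a mean count of at least 10, 109 with GC content and length trends removed, and 0 with the tagwise dispersion, at which 96 genes had an unadjusted p under 0.05; it ranged from 12 to 28 when each library was left out, with fewer samples (27 without library 1, 28 without library 2, 12 without library 3). With the tagwise dispersion the calls of Slco1c1 and Ackr1 were lost (edgeR adjusted p = 0.9996 for each). That dispersion is estimated per gene from the same 3 libraries and takes in the gene's own spread. Few calls can survive it, so this loss says little about the 2 genes. The number of members at an unadjusted edgeR p under 0.05 (2) changed with the settings. It was 5 of 28 with GC content and length trends removed (952 of 14409 genes). With a mean count of at least 10 it was 3 of 31 (1382 of 16392 genes), and with the tagwise dispersion 0 of 28 (96 of 14409 genes). With each library left out it was 0 to 7, beside the gene counts given for those runs above. With no filter it was 2 of 34 (1728 of 25083 genes), Sele and Icam1 in place of Selp and Mfsd2a. The median log2(CPM + 1) of the members (2.90) was 3.68 over those past the filter, which removes the low ones. The per-length level moved by more than 1 SD for 12 of 34 members with the longest transcript as length. With other size factors or plain totals it did so for 0 of 34. Leaving out 1 of 3 libraries can hardly move a mean by more than 1 SD, so this rule says nothing about left-out libraries. For example, the mean of Prox1 was 0.0129 without library 3 in place of 0.0531 CPM per kilobase. The count of members lowest in library 2 was 18 with plain totals and 19 with DESeq2 size factors, alternatives chosen after seeing the data. No paired analysis was possible because all libraries belong to 1 group, which leaves nothing to pair. Apln, Sele, Sox17 and Tal1 each had 0 counts in at least 1 library, where depth sets only an upper limit on the level. The 0 of Sele was in library 2, which had the most gene counts.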
